A study of Homo sapiens with 4 samples.

Results

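Of the 2890 snoRNA, scaRNA and snRNA genes that GENCODE lists in the total RNA tables of PC3 extracellular vesicles (EVs), 48 had at least 2 reads summed over both libraries. These 48 genes are described here, and because they were chosen by their read counts, their number and levels are given as a description with no test. The share detected was 1.66%, against 18.6% of all 56948 genes matched to the annotation and 40.7% of protein-coding genes at the same minimum. They fell, by symbol and gene type, into 9 C/D box snoRNAs of 385 genes, 12 H/ACA box snoRNAs of 213, 3 snoRNAs without a class symbol of 339, 4 scaRNAs of 53 and 20 snRNAs of 1900. A further 2 genes had 1 read and 2840 had none.

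PC3 is a human prostate cancer cell line grown from a bone metastasis. The study sequenced RNA of EVs from PC3 cultures, with no treatment or genetic change named, as 2 stranded total RNA libraries and 2 small RNA libraries, each a biological replicate per the study's methods. The libraries are of a single condition, and RNA of the PC3 cells themselves was not analysed here, so levels in EVs were not set against levels in the cells. The labels name qEV size-exclusion columns for isolating the vesicles, and the study's methods describe serum from which exosomes had been removed.

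Small nucleolar RNAs guide chemical changes of ribosomal RNA in the nucleolus. C/D box snoRNAs bind fibrillarin, NOP56, NOP58 and SNU13 and direct ribose methylation, and H/ACA box snoRNAs bind dyskerin, NOP10, NHP2 and GAR1 and direct the change of uridine to pseudouridine. A few, such as U3, U8 and U17, are needed for cutting the ribosomal RNA precursor instead. Small Cajal body RNAs (scaRNAs) do the same guiding work on spliceosomal RNAs. The snRNAs U1, U2, U4, U5 and U6, with their minor counterparts, form the core of the spliceosome, and most carry a ring of Sm proteins on a uridine-rich site. All of these RNAs work mainly in the nucleus. Most human snoRNAs are cut from introns of host genes, whereas U3 and most snRNAs are transcribed from genes of their own, in many near-identical copies.

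The C/D box snoRNA U3 led the members, and its copies are almost the same sequence. GENCODE draws the genes longer than the mature RNA, so the first 217 bases, the length of U3 in RefSeq, are shown for the 3 copies with the most reads. Sequences were read from GRCh38 at the annotated strand, 5′ to 3′. Capitals mark the positions, 78 and 108 counted from 1 at the 5′ end, at which the 3 copies differ. SNORD3C differs from SNORD3A by G108A, and SNORD3B-2 differs from SNORD3A by A78C.
SNORD3A, chr17:19188016-19188232, plus strand: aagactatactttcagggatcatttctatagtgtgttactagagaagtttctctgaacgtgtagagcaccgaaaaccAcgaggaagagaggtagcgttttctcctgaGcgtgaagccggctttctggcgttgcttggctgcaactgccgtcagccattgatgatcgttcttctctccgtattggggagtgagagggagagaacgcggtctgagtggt
SNORD3C, chr17:19190029-19190245, minus strand: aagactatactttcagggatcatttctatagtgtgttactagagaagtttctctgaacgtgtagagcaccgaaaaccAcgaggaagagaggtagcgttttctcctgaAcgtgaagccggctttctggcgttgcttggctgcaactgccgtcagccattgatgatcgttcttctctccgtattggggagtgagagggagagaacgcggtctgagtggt
SNORD3B-2, chr17:19063920-19064136, minus strand: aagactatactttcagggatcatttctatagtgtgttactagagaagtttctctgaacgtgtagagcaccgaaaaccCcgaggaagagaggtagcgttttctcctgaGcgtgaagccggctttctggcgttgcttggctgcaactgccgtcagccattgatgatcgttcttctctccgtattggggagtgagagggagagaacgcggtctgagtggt

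U1 led the snRNAs, and 1 sequence stood for several genes. RNU1-4 is shown with capitals on CTTACCTG near its 5′ end, which pairs with the 5′ splice site of an intron, and on its Sm site, ATTTGTG. RNVU1-31, the second U1 member by reads, is shown with capitals on its 2 differences from RNU1-4, which are A49T and C116T.
RNU1-4, chr1:16740516-16740679, plus strand: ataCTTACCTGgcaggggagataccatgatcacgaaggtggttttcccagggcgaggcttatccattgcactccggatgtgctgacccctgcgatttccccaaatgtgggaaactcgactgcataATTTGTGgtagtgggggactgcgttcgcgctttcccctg
RNVU1-31, chr1:145465617-145465780, minus strand: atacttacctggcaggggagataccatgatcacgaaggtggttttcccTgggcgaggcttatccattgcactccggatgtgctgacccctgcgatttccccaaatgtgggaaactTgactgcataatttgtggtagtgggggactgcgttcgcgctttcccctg

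The U4 genes RNU4-1 and RNU4-2, neighbours on chromosome 12, are shown because most of their length is found once in the genome. Capitals mark their 4 differences, given from RNU4-1 to RNU4-2 as C37T, G88A, C99A and C113T.
RNU4-1, chr12:120293097-120293237, minus strand: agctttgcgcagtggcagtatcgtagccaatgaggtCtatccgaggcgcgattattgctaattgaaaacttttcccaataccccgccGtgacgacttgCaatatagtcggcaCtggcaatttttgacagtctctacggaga
RNU4-2, chr12:120291763-120291903, minus strand: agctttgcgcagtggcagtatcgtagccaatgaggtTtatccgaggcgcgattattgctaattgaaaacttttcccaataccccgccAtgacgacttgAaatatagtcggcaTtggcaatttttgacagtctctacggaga

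SNORA73B and SNORA71A, the H/ACA members with the highest mean CPM, are shown with the lower family members SNORA71C and SNORA71D. Capitals mark the ACA box of their last 10 bases, the signature at the 3′ end of this class. SNORA73B is a copy of U17. The 3 SNORA71 genes lie within a few kilobases of each other in the gene SNHG17.
SNORA73B, chr1:28508559-28508762, plus strand: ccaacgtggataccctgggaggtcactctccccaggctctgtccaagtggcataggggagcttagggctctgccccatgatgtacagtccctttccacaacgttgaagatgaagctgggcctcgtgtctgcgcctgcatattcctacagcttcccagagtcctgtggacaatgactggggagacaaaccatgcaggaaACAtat
SNORA71A, chr20:38427309-38427442, minus strand: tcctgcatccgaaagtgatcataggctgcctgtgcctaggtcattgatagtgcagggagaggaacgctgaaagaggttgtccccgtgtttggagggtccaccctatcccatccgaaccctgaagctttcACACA
SNORA71C, chr20:38429670-38429803, minus strand: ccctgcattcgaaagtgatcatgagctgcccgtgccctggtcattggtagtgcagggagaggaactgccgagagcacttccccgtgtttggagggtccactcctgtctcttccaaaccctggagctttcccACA
SNORA71D, chr20:38433865-38433998, minus strand: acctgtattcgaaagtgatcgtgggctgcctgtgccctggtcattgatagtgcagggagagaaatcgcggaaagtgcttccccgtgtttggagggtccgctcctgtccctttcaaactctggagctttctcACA

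The 2 scaRNAs with the most reads also end in an ACA box, in capitals.
SCARNA13, chr14:95533355-95533629, minus strand: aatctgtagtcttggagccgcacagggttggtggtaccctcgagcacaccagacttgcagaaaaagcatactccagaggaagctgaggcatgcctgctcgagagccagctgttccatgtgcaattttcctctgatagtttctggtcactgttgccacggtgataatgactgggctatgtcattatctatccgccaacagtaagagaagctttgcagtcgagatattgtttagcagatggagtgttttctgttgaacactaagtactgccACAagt
SCARNA21, chr17:7906122-7906260, plus strand: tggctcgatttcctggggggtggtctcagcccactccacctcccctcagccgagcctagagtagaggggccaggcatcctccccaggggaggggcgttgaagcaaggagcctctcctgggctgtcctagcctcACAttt

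The C/D box members SNORD66 and SNORD104 and 2 unnamed snoRNA genes are shown with any C box (NTGATGA) in the first 20 bases and any D box (CTGA) in the last 20 bases in capitals. ENSG00000201592 and ENSG00000201882 carry no class symbol, lie in the gene EIF1AX and are shown because their ends can be read against those of SNORD66 and SNORD104. ENSG00000201882 has a D box in its last 20 bases and no match to NTGATGA in its first 20.
SNORD66, chr3:184325696-184325771, plus strand: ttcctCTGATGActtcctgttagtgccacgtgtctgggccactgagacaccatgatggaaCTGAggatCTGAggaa
SNORD104, chr17:64146083-64146152, plus strand: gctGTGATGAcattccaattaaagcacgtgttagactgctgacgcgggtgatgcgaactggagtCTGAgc
ENSG00000201592, chrX:20136306-20136385, minus strand: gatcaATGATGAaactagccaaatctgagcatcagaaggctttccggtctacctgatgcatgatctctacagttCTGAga
ENSG00000201882, chrX:20136066-20136135, minus strand: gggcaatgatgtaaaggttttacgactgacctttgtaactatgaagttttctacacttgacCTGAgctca

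The total RNA libraries were shallow on genes. The authors' files held 489170 gene counts in replicate 1 and 475942 in replicate 2, which were 2.50% and 2.16% of the reads in the files. Reads aligned to more than 1 place made up 45.5% and 48.1%, and reads outside annotated features made up 36.3% and 35.4%. A count of 0 allows a level of up to 6.13 CPM, the scaled count, in replicate 1 and 6.30 CPM in replicate 2, taken as 3 reads. CPM here is a gene's reads per 1000000 reads counted on genes. Intervals and limits cover counting error only, since the reads carry no molecular identifiers. They take each read as independent, and would be too narrow if both reads of a pair were counted separately.

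The 48 genes held 1249 reads in replicate 1 and 1619 in replicate 2. This was 0.255% of gene counts (95% Wilson interval 0.242 to 0.270%) and 0.340% (0.324 to 0.357%), a mean of 0.298% ± 0.0600 (SD, n = 2). Replicate 2 was higher, and the intervals did not overlap. C/D box genes held 633 and 878 reads, H/ACA box genes 189 and 338, scaRNA genes 194 and 236, snRNA genes 205 and 160, and the 3 snoRNAs without a class symbol 28 and 7. Below C/D box, the shares of snRNA, scaRNA and H/ACA box genes had overlapping intervals in replicate 1, while in replicate 2 H/ACA box genes stood above the other 2. The number of vesicles that carry an RNA and the amount in each cannot be told apart in these libraries.

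**Figure D1:**
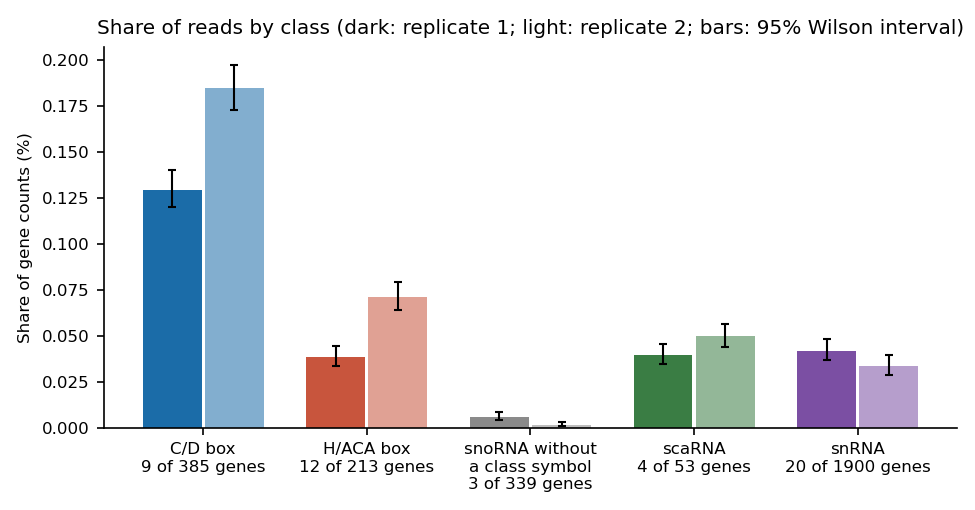
Share of gene counts, in percent, held by the detected genes of each class in replicate 1 (dark) and replicate 2 (light), with 95% Wilson intervals as error bars; below each class stands how many of its genes were detected. C/D box genes held the largest share in both replicates, 0.129% and 0.184%, although 20 snRNA genes and 12 H/ACA box genes were detected against 9 C/D box genes.

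Reads were concentrated in few genes. SNORD3A alone held 35.5% of the reads on the 48 genes, the 5 highest held 74.9% and the 10 highest held 85.7%. By mean CPM, SNORD3A ranked 51 among all matched genes. At the other end, 20 of the 48 genes had under 10 reads in all, and the genes just inside the minimum were SNORA65 with 2 and 0 reads and RNU6-539P with 0 and 2. Just outside it were RNU5E-1 and RNU4-47P, each with 0 and 1.

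**Figure D2:**
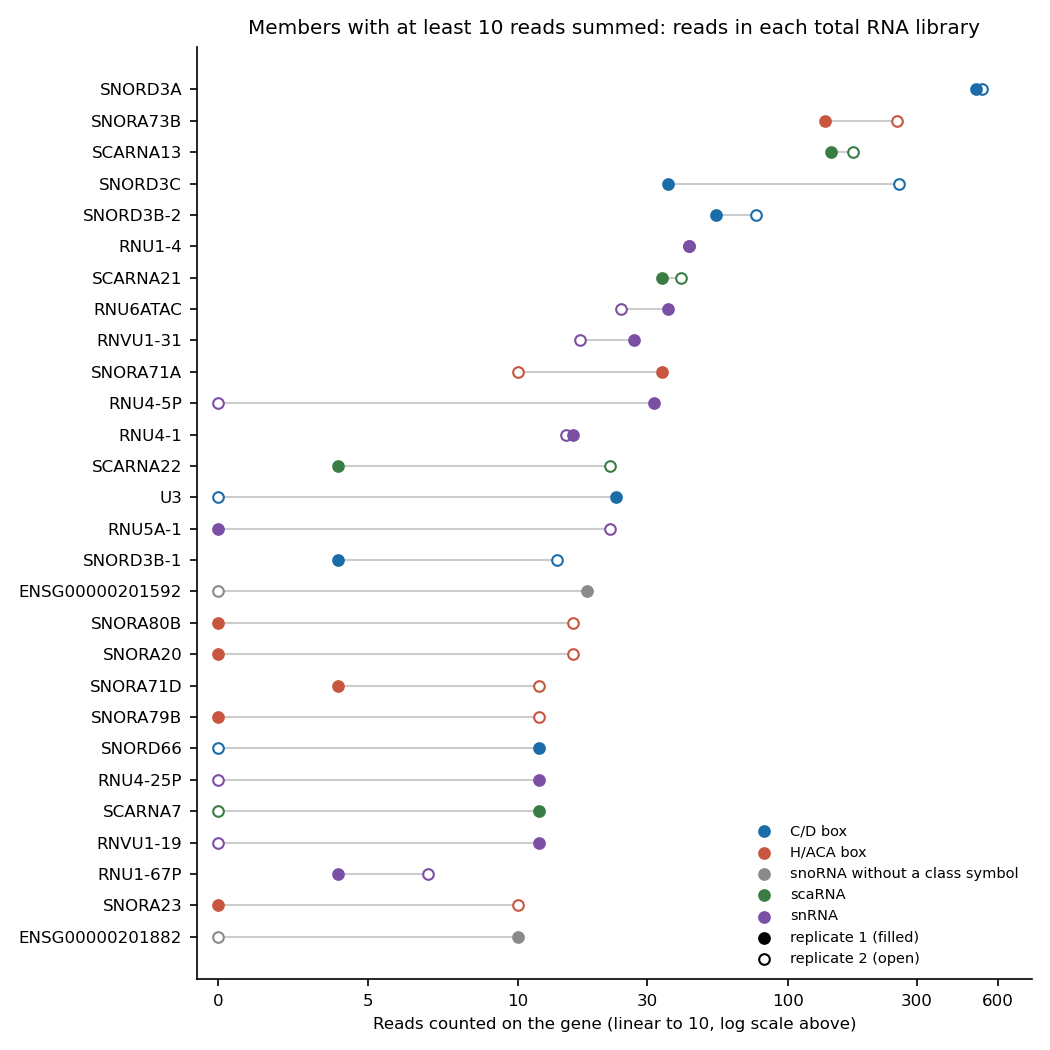
Reads in replicate 1 (filled) and replicate 2 (open) for the 28 members with at least 10 reads summed, ordered by mean CPM and coloured by class, on an axis that is linear to 10 and logarithmic above. The replicates lie close for SNORD3A (496 and 521) and RNU1-4 (43 in each, so the points coincide), far apart for SNORD3C (36 and 257), and many of the lower genes have reads in only 1 replicate.

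Reads were found in both libraries for 18 of the 48 genes, in replicate 1 only for 15 and in replicate 2 only for 15. The 18 are 0.623% of the genes of these types, against 9.75% of all matched genes with a read in each library. All 8 members with at least 50 reads were in both, as were 98.4% of other genes with as many reads. With 10 to 49 reads, 7 of 20 members were in both (35%), against 56.6% of other genes. With 2 to 9 reads, 3 of 20 were in both (15%), against 12.3%. Even numbers made up 84.8% and 72.7% of the members' counts above 0 in the replicates, and 67.3% and 64.8% of other genes' counts. Whether both reads of a pair were counted separately is not given in the sources used here. If they were, 2 reads can be 1 fragment, so the minimum can rest on 1 fragment. Statements on intervals that do or do not overlap would then be less certain.

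Among the C/D box snoRNAs, the U3 genes stood first. U3 binds the ribosomal RNA precursor and directs the cuts that release the small-subunit RNA. SNORD3A had 496 and 521 reads, or 1014 and 1095 CPM (mean 1054 ± 57.1, SD, n = 2). The replicates differed by less than their counting intervals. SNORD3C had 36 and 257 reads, 73.6 and 540 CPM. Its replicates stood apart, with a log2 ratio of 2.86 for replicate 2 over replicate 1. SNORD3B-2 had 54 and 76 reads, 135 CPM ± 34.9 (SD, n = 2), and SNORD3B-1 had 4 and 14. The 4 SNORD3 genes together held 590 and 868 reads, 70.3% of all reads on snoRNA genes. The other 2 genes named SNORD3, both SNORD3D, were at 0. A gene named only U3, on chromosome 15 and 75.6% identical to the first part of SNORD3A, had 23 and 0 reads.

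The U3 counts have to be read beside the sequences shown above. Each SNORD3 gene was cut into windows of 50 bases, and each window was searched for on both strands of the GRCh38 chromosomes, alternate haplotypes left out. In SNORD3A only 20 of 650 windows (3.08%) were found once, the 20 that span both variable positions. In SNORD3C, 50 of 532 (9.40%) were found once, all in the first 217 bases. In SNORD3B-2 and SNORD3B-1, 132 of 742 and 88 of 709 were found once, all beyond the first 217 bases, in which these 2 genes are identical to each other. The study's methods name the cycles of the sequencing run, but how they were divided over 1 or 2 reads is not given in the sources used here. How the reads on U3 divide among its copies was therefore not tested, and the family is better read by its sum than by single copies. Reads with several places were not counted, so the sum also says little of the amount of U3. Whether reads on SNORD3B-2 and SNORD3B-1 come from the mature RNA or from beyond it was not tested.

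**Figure D3:**
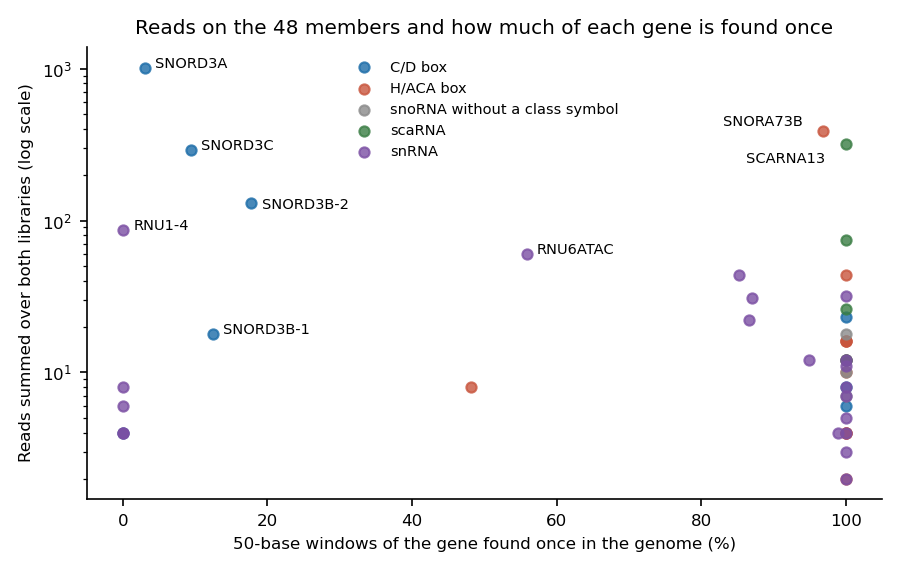
Reads summed over both libraries (log scale) for the 48 members against the percent of the gene's 50-base windows found once in the genome, coloured by class. SNORD3A, SNORD3C, SNORD3B-2 and RNU1-4, each with at least 86 reads, have few windows found once, from 0% for RNU1-4 to 17.8% for SNORD3B-2, while SNORA73B and SCARNA13 are found once over 96.8% and 100% of their windows.

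Over all 48 members, every window was found once in 30, which held 726 reads or 25.3% of the total. No window was found once in 6 members, which were RNU1-4, RNU1-2, RNU1-27P, RNVU1-29, U2 and SNORD62A. These 6 held 112 reads.

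The remaining C/D box members had few reads. SNORD66, a guide of ribosomal RNA methylation in an intron of EIF4G1, had 12 and 0 reads. SNORD104, in the host gene SNHG25, had 6 and 2, SNORD17 had 2 and 4, and SNORD62A had 0 and 4. SNORD17 and SNORD104 were thus the only C/D box members outside the SNORD3 family with reads in both libraries, at low counts. A C box (NTGATGA, in the first 20 bases of the gene's own strand) together with a D box (CTGA, in the last 20) was found in 3 of 9 C/D box members and in 195 of the 385 annotated genes (50.6%). The SNORD3 genes are drawn past the 3′ end of the mature RNA, so for them the D box search fell beyond it. Their first 20 bases hold no match to NTGATGA. In the 3 copies shown above, CTGA lies within the last 20 of the 217 bases.

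The H/ACA box members were led by SNORA73B. U17, the RNA it encodes, is needed for making the small-subunit ribosomal RNA. SNORA73B had 137 and 254 reads, 280 and 534 CPM (mean 407 ± 179, SD, n = 2). Replicate 2 was higher, with intervals that did not overlap. SNORA73A, 93.2% identical to SNORA73B, was at 0 in both libraries, and 96.8% of the windows of SNORA73B were found once. Per annotated length SNORA73B stood at 1994 CPM per kilobase and SNORD3A, over 699 bases, at 1508. Over the 217 bases of U3 in RefSeq, a length applied after the values were seen, SNORD3A stood at 4859 CPM per kilobase, so the order of the pair turns with the length used.

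The SNORA71 genes, guides of ribosomal RNA pseudouridylation, were a family of 3 members. SNORA71A had 34 and 10 reads, SNORA71D had 4 and 12, and SNORA71C had 0 and 4. SNORA71A was higher in replicate 1 and the other 2 in replicate 2, so that their sums, 38 and 26, lay closer than SNORA71A did alone. The 3 genes are 83.1 to 86.6% identical and all of their windows were found once. SNORA71B and SNORA71E were at 0.

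The other 8 H/ACA members had reads in 1 library only. SNORA20 and SNORA80B each had 0 and 16, SNORA79B had 0 and 12, and SNORA23 had 0 and 10. SNORA40B had 8 and 0, SNORA5C 4 and 0, SNORA80D 0 and 4, and SNORA65 2 and 0. ACA was present in the last 10 bases of 11 of the 12 H/ACA members and of 175 of the 213 annotated genes (82.2%), so most of the class carries it whether detected or not.

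The scaRNAs had the highest share of genes detected, 4 of 53 (7.55%). Among detected genes they had the highest median level per length, 385 CPM per kilobase over 4 genes. Over all annotated genes the median was 0 in each class, so this order describes detected genes only. SCARNA13 had 144 and 174 reads, 330 CPM ± 50.4 (SD, n = 2). SCARNA21 had 34 and 40, 76.8 CPM ± 10.3. For both, the counting intervals of the replicates overlapped. SCARNA22 had 4 and 22, and SCARNA7 had 12 and 0. The whole span of SCARNA22 lies in an exon of NSD2, which had 16 and 26 reads. SCARNA13 lies in an exon of the host gene SNHG10, which had 0 and 10 reads. On the opposite strand, 127 of its 275 bases lie in an exon of GLRX5, an iron-sulphur cluster protein gene with 3144 and 3910 reads. The strand setting of the counting is not given in the sources used here, so the part of GLRX5 reads in the SCARNA13 count was not tested.

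Among the snRNAs, U1 genes led. U1 recognises the 5′ splice site, and the copies on chromosome 1 include many identical ones. RNU1-4 had 43 and 43 reads, 89.1 CPM ± 1.73 (SD, n = 2). RNVU1-31 had 27 and 17, RNVU1-19 had 12 and 0, RNU1-67P had 4 and 7, RNVU1-29 had 6 and 2, RNU1-2 and RNVU1-15 each had 4 and 0, and RNU1-27P had 0 and 4. RNU1-4, RNU1-2, RNU1-27P and RNVU1-29 are identical to RNU1-1 over all 164 bases, and RNU1-1 was at 0. These 4 genes held 53 and 49 reads, 59.0% of U1 reads, although none of their windows was found once and reads with several places were set aside. CTTACCTG was present in the first 12 bases of 6 of the 8 U1 members and of 59 of 145 annotated U1 genes (40.7%), and the Sm motif ATTTNTG was present in 7 of 8 and in 93 of 145 (64.1%).

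U4 pairs with U6 and holds it inactive until the spliceosome is activated. RNU4-1 had 16 and 15 reads, 32.1 CPM ± 0.843 (SD, n = 2), and RNU4-2, its neighbour, had 4 and 0. Over RNU4-1, 87.0% of windows were found once. RNU4-5P, a pseudogene of U4 on chromosome 10, had 32 and 0 reads and the largest difference between replicates among genes with at least 20 reads, a log2 ratio of −6.05 for CPM + 1. The gene named U3 followed with −5.59 and RNU5A-1 with 5.56. RNU5A-1, a copy of U5, which holds the exon ends together, had 0 and 22 reads. RNU4-25P had 12 and 0. All 230 of its bases lie in a same-strand exon of a pseudogene with 0 and 4 reads. On the opposite strand, 63 of them lie in an exon of PVT1, with 24 and 25 reads. For RNU4-5P, 40 of 135 bases lie opposite an exon of XPNPEP1, with 0 and 2. The part of such reads in these counts was not tested.

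U2 and U6 had few counted reads, and for U2 this says little of its amount, since none of the 142 windows of the detected gene was found once and reads with several places were not counted. That gene, named U2 and identical to RNU2-1 over 191 bases, had 0 and 6 reads, and RNU2-1 was at 0. Of 1310 genes of the U6 family, 4 were detected (0.305%), all pseudogenes by symbol, with 20 reads in replicate 2 and none in replicate 1. Each of the 4 lies opposite a gene on the other strand, PIBF1, CLINT1, DRG1 or NEMF. The part of reads from those genes in the counts was not tested. The U6 genes RNU6-1, RNU6-2, RNU6-7, RNU6-8 and RNU6-9 were at 0. Windows were searched only for members, so how much of these U6 genes is found once was not tested. The counts therefore say little of the amount of U6 as well. RNU6ATAC, the U6 counterpart of the minor spliceosome, had 36 and 24 reads, 62.0 CPM ± 16.4 (SD, n = 2), and was the member with the most reads outside U1 among the snRNAs. Of its windows, 43 of 77 (55.8%) were found once. Its partner RNU4ATAC and the other minor spliceosome RNAs, RNU11 and RNU12, were at 0 in both libraries. Their windows were not searched, so nothing is read from these zeros. U7, which processes histone messages, was at 0 in its gene RNU7-1, and its pseudogene RNU7-143P had 5 and 0 reads. Pseudogene symbols ending in P made up 9 of the 20 snRNA members and 1778 of 1900 snRNA genes.

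The lists of the pathway place these members among the genes that were not detected. Of 21 genes of the major spliceosomal RNAs, 6 were detected (28.6%, against 1.05% of all snRNA genes). Pseudogene symbols ending in P made up 1778 of the 1900 snRNA genes but few of the 21, so these shares do not compare like with like. Only 2 of the 6 had reads in both libraries, and the U1 genes among the 6 are identical copies. Nothing is read from the difference in shares. Of 17 genes for snoRNAs of ribosomal RNA cleavage and folding, 5 were detected (29.4%, against 2.55% of all snoRNA genes), which were the 4 SNORD3 genes and SNORA73B, each with reads in both libraries. The SNORD3 genes are near-identical copies, so the 5 stand for U3 and U17 only, and the share is no measure of the function. U8 (SNORD118), U13 (SNORD13), U22 (SNORD22) and the 5 SNORD14 genes were at 0. None was detected of 128 genes in the imprinted clusters SNORD113 to SNORD116, of 5 genes bearing the symbols of snoRNAs in RPL13A introns, or of 14 genes used as references for small RNA measurements, such as SNORD48 and RNU6-2. Since 1.08% of all C/D box genes under 100 bases were detected, these zeros are close to the share of short genes at large, and nothing is read from them. The snoRNAs of the GAS5 gene were not analysed here, because their symbols did not match genes at that locus.

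The share of genes detected was higher among longer genes. Of 707 genes under 100 bases, 6 were detected (0.849%). From 100 bases to under 150, 22 of 1862 were detected (1.18%), and from 150 to under 200, 10 of 235 (4.26%). At 200 bases or more, 10 of 86 were detected (11.6%), and these 10 genes held 77.4% of the members' reads. The median length was 138 bases for the members and 107 for all genes of these types. Within the snRNAs the shares were 0.652% from 100 bases to under 150 and 4.62% from 150 to under 200. These ranges hold different families, since the 9 members of the upper range are 8 U1 genes and U2, while the U6 family, with a median of 106 bases and 0.305% detected, fills most of the lower one. U4, with a median of 140 bases, was detected in 4 of 97 genes (4.12%). C/D box genes showed 1.08% under 100 bases and 10% at 200 or more, where 4 of the 6 are SNORD3 genes. H/ACA genes showed no such step between 5.78%, 5.26% and 11.1% in the 3 upper ranges.

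**Figure D4:**
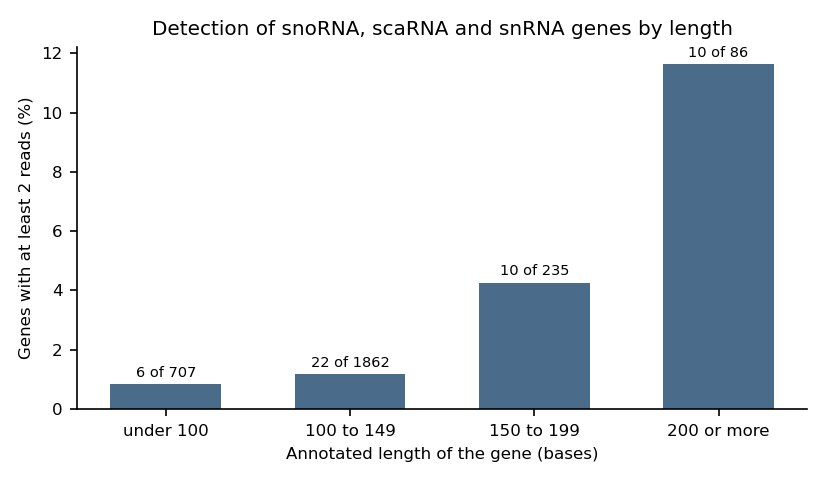
Percent of annotated snoRNA, scaRNA and snRNA genes with at least 2 reads, by annotated length in bases; the numbers detected and annotated stand above each bar. The share is 0.849% under 100 bases and 11.6% at 200 bases or more.

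Position in the genome was not used in choosing the members. Of the 28 snoRNA and scaRNA members, 22 lie inside a gene on the same strand, including all 12 H/ACA and all 4 scaRNA members, while the SNORD3 genes lie in none. Over all annotated genes, 12 of 153 H/ACA genes inside a host were detected and 0 of 60 outside one, and for scaRNAs 4 of 31 and 0 of 22. C/D box genes ran the other way, with 4 of 300 detected inside a host (1.33%) and 5 of 85 outside (5.88%), 4 of these 5 being SNORD3 genes. For snRNAs the shares were 0.902% inside and 1.13% outside. Where the host itself had at least 2 reads, 10 of 109 H/ACA genes were detected (9.17%), and where it had fewer, 2 of 44 (4.55%). C/D box genes with a base in a same-strand exon of another gene numbered 148, none of them detected, against 9 of 237 without such a base. For H/ACA genes the 2 shares were 4 of 77 (5.19%) and 8 of 136 (5.88%). The order was the opposite for scaRNAs, with 2 of 13 (15.4%) and 2 of 40 (5%), and for snRNAs, with 2 of 65 (3.08%) and 18 of 1835 (0.981%). Across all types, 8 of the 48 members overlapped an exon of another gene on the same strand, as did 333 of all 2890 genes (11.5%), and the share detected was 2.40% with such an overlap and 1.56% without. The overlap covered the whole span for 7 members and for 263 of all genes. Reads there may be assigned to either gene or to none, depending on the annotation release and counting mode, which are not given in the sources used here. With a base in an opposite-strand exon, 4 of 67 genes were detected (5.97%), against 44 of 2823 without such a base (1.56%). The strand setting is not given either, so the part of opposite-strand reads in these counts was not tested.

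Host genes and the RNAs within them were set side by side. SNORA73B lies in RCC1, with 14 and 48 reads, and in SNHG3, with 27 and 8, against its own 137 and 254. SCARNA21 had 34 and 40 reads in CHD3, whose exons had 63 and 138. SNORA65, at 2 and 0 reads, lies in RPL12, a ribosomal protein gene with 339 and 255. The unnamed snoRNA genes ENSG00000201592 and ENSG00000201882 had 18 and 10 reads, all in replicate 1, while their host EIF1AX had 0 and 32. SNORD66 had reads in replicate 1 only, although EIF4G1 had 200 and 90. Per kilobase, 20 of 21 snoRNA and scaRNA members with a measured host were higher than the host, SNORA65 being lower. This follows in part from the minimum, since the lowest member, with 2 reads on 130 bases, already stood at 15.7 CPM per kilobase, and nothing is read from it.

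**Figure D5:**
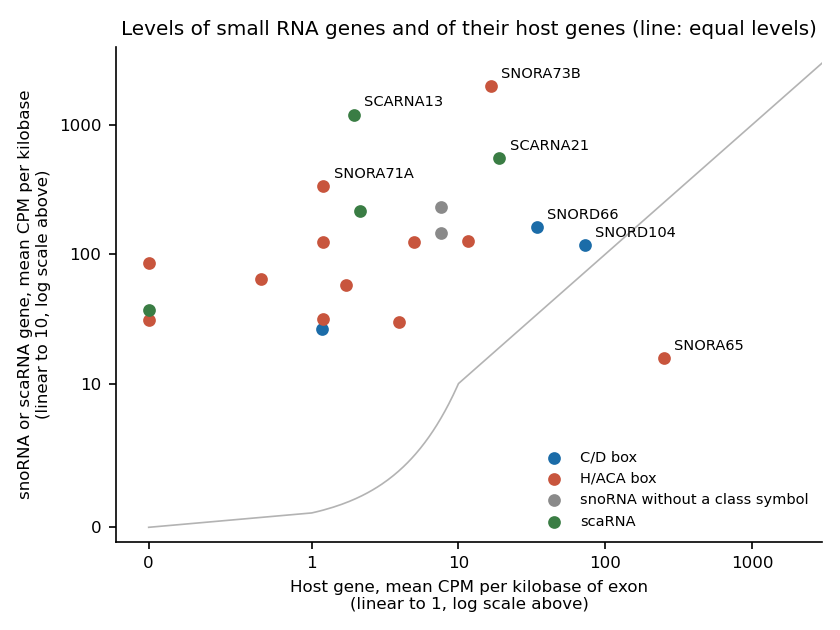
Mean CPM per kilobase of the 21 snoRNA and scaRNA members that lie in a measured host gene, against the mean CPM per kilobase of the host's exons, on axes that are linear near 0 and logarithmic above; the line marks equal levels. SNORA65 lies under the line, and SCARNA13 and SNORA73B stand at 1200 and 1994 CPM per kilobase over hosts at 1.93 and 16.7.

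Messages for the proteins that bind these RNAs were counted from lists of the complexes. Of 57 such genes, 39 had at least 2 reads (68.4%), against 40.7% of protein-coding genes. Reads were in both libraries for 20 of the 39, beside 4305 of the 7985 protein-coding genes detected. All 4 C/D box core proteins were detected, with 29 and 70 reads for NOP56, 34 and 0 for NOP58, 0 and 18 for SNU13 and 4 and 0 for fibrillarin (FBL). Of 4 H/ACA box core proteins 3 were detected. DKC1, the pseudouridine synthase of the H/ACA complex, had 26 and 36 reads, NHP2 had 0 and 8, and NOP10 had 6 and 0. GAR1, with 0 and 1, was not detected. Of 12 assembly factors 10 were detected, including NOLC1 with 28 and 30, RUVBL2 with 18 and 28, RUVBL1 with 23 and 18, PIH1D1 with 26 and 12, ZNHIT6 with 12 and 22 and RPAP3 with 8 and 14. WRAP53 had 0 and 16, COIL 0 and 12, and NUFIP1 6 and 4.

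On the spliceosomal side, SNRNP70, a U1 protein, had 110 and 90 reads, while only 2 of the 5 genes of its list, the U1 and U2 proteins, were detected (40%, beside 40.7% of protein-coding genes). SNRPA had 4 and 0 reads, and SNRPC, SNRPB2 and SNRPA1 were at 0. Of 8 Sm protein genes 6 were detected, with SNRPD3 at 19 and 41 and SNRPD2 at 27 and 10. SNRPG was at 14 and 0, and SNRPB at 1 and 12. Of 7 U6-binding Lsm genes 4 were detected, with LSM3 at 19 and 91, LSM4 at 66 and 32 and LSM7 at 0 and 30. Of 14 genes of the SMN complex and snRNA export 8 were detected, with PHAX at 24 and 12 and GEMIN4 at 47 and 0. NCBP1 was at 0 and 22, GEMIN7 at 22 and 0, TGS1 at 10 and 7, and STRAP at 15 and 0. For the Ro and La proteins, 2 of 3 were detected, with 14 reads in all.

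The small RNA libraries give a separate view, since some miRNAs are cut from snoRNA-like hairpins. The authors' table held 154185 and 113185 miRNA reads, and its columns share a name, so its libraries are called first and second with no replicate number. In RefSeq, 6 hairpins with 9 miRNA names in the table overlap a snoRNA or scaRNA gene on the same strand. The 5 names with the most reads are shown with the seed, bases 2 to 8, in capitals.
miR-1291, hairpin at chr12:48654444-48654530, minus strand, over SNORA2C: uGGCCCUGacugaagaccagcagu
miR-6516-3p, hairpin at chr17:77089417-77089497, plus strand, over SCARNA16: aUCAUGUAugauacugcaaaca
miR-3651, hairpin at chr9:92292458-92292547, minus strand, over SNORA84: cAUAGCCCggucgcugguacauga
miR-664a-5p, hairpin at chr1:220200538-220200619, minus strand, over SNORA36B: aCUGGCUAgggaaaaugauuggau
miR-6516-5p, hairpin at chr17:77089417-77089497, plus strand, over SCARNA16: uUUGCAGUaacaggugugagca

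These 9 names held 110 and 45 reads, 0.0713% and 0.0398% of miRNA reads. The H/ACA-derived miR-1291 had 65 and 17 reads, miR-6516-3p had 19 and 11, miR-3651 had 9 and 7, miR-664a-5p had 4 and 6, and miR-6516-5p had 5 and 3. Reads were present in both libraries for 6 of the 9 names, a share not set beside that of all miRNA names. The 6 genes that overlap these hairpins, 5 H/ACA snoRNAs and the scaRNA SCARNA16, were all at 0 in the total RNA libraries. So were 201 of all 213 H/ACA genes and 49 of all 53 scaRNA genes. None of the 48 members held a hairpin listed in the small RNA table. With so few genes detected, nothing is read from these zeros. The 5 seeds shown all differ.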

How the data were processed

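Total RNA reads had been mapped to GRCh38 by the authors and counted per Ensembl gene with HTSeq. The raw counts were deposited together with tallies of reads left uncounted. The authors also deposited raw counts per mature miRNA for the small RNA. Versions, strand setting, annotation release and mapping settings are not given in the sources used here. Types, symbols, spans and exons came from GENCODE release 44 (56948 identifiers matched, 1103 did not), and lengths of U3 from RefSeq on GRCh38.p14. Counts were scaled to CPM per library, with the mean and SD of 2 replicates and 95% Wilson intervals. With 1 condition, nothing was tested between groups. The members and lists were chosen with earlier results of these data known. Genes named are the 10 highest, the 3 highest of each class, list genes with at least 10 reads, the 3 with the largest replicate difference among those with at least 20 reads, and genes at the minimum; the rest of the 48 were added to account for each, and SNORD66, SNORD104, the unnamed snoRNA genes and the host genes after their values were seen. Windows of 50 bases were matched exactly to the genome. Shared functions were tested on simulated data. Python 3.11.15, pandas 2.3.3, NumPy 2.4.6, SciPy 1.17.1, Biopython 1.88, pysam 0.24.0 and matplotlib 3.10.9 were used, and edgeR 4.0.16 and DESeq2 1.42.0 in R 4.3.3 gave the alternative scalings.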

Additional observations from a re-analysis of the deposited data

How the results depend on the processing

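The number of genes detected was 50 with at least 1 read summed and 43 by symbol prefix alone. It fell to 28 with at least 10 reads summed, to 18 with a read in each library and to 15 with at least 3 reads in each. Without either replicate it was 33. The mean share of gene counts was 0.462% with miscellaneous RNA and mitochondrial genes left out of the total, 0.00686% of all reads in the files and 0.192% without SNORD3A, and it ranged from 0.255 to 0.340% when 1 replicate was left out. The 10 highest members summed to 2552 CPM, with 2561 under TMM and 2560 under DESeq2 scaling and 2128 to 2975 when a replicate was left out. All 30 values of 15 named members under the 2 scalings stayed within 1 SD. This is a weak check, since the TMM factors were 1.02 and 0.980 and the SD is wide where the replicates differ. The median level per length became 0 in each class when genes at 0 were included. Without length, the median was 18.8 CPM for C/D box, 52.0 for scaRNA and 8.32 for snRNA genes. Overlap of at least 50% of the span with a same-strand exon held for 7 members against 8 for any overlap. No paired analysis was possible because there is a single condition. Depth limits the 20 members under 10 reads, 17 of which rest on 1 library, and 2 replicates give an SD with little precision.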
